A study of Mus musculus with 30 samples.

Results

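The differences described here are those found between Olig1/2-null neural progenitors given an Olig2 retrovirus and progenitors that kept 1 working copy of Olig1/2. They were read from 7 of the 30 arrays of the series, chosen by their labels alone. The 7 arrays were 3 null cultures with the Olig2 virus (lines 12, 13 and 14), 2 heterozygous cultures with a GFP virus and 2 heterozygous cultures with the Olig2 virus (lines 11 and 15 in both cases). The virus carried Olig2 and not Olig1, so the null cultures had no added Olig1. The same null lines with the GFP virus (3 arrays) gave the difference without add-back, and 12 neurosphere cultures with neither virus (6 null, 3 heterozygous and 3 wild-type, called untransduced here) gave the genotype difference in other arrays.

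All cultures were neurospheres grown from ganglionic eminences taken at E14.5, from mice of a mixed Swiss and C57BL/6J background. Every culture, controls included, lacked Ink4a/Arf and carried EGFRvIII, a truncated and constantly active EGF receptor found in glioma, delivered by retrovirus at passage 1. Growth was serum-free with EGF and bFGF. The Olig2 or GFP virus was added at passage 3 and selected with blasticidin. The labels give harvest between passages 4 and 15 without the passage of each array, so passage cannot be told apart from the groups.

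Olig1 and Olig2 lie side by side and encode transcription factors of the basic helix-loop-helix class, which specify oligodendrocyte precursors and some neurons, and both are expressed in neural progenitors. Id4 encodes a helix-loop-helix protein without the DNA-binding part, which pairs with partners of such factors and keeps them from DNA. Because the deletion removed both Olig genes and the virus returned Olig2 alone, the comparison asks how close the transcriptome came to that of Olig-expressing cells.

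The deposited values are MAS5 signals, intensities on a linear scale. Differences are log2 of signal plus 16, each gene was read from 1 probe set, and a gene was called at a Benjamini-Hochberg adjusted p under 0.05 in a limma fit over the 10 transduced arrays. Median signals of these 10 arrays ran from 128.9 to 191.2, and null Olig2 arrays correlated with heterozygous arrays at 0.93 to 0.946 and with each other at 0.935 to 0.938 across probe sets. Each array lay above its median for 18 or 19 of 20 neural stem and progenitor genes, and for 3 to 6 of 17 microglia genes. The 4 heterozygous arrays came from 2 lines, and line 15 alone had a high signal for Xist, the RNA of the inactive X chromosome of female cells (29882 and 33197, against 161 to 419 in the other 8 transduced arrays). The 3 null GFP arrays had the highest Gapdh 3' over 5' log2 ratios of the 10 (-0.09, 0.43 and -0.04, against -0.26 to -0.14 in the other 7) and the lowest median signals (128.9 to 151.6, against 161 to 191.2), and line 13 among them had an A260/A280 of 2.83. The part of these RNA measures in the values with GFP was not tested. Without null GFP line 13 the total of calls below was 2 after add-back, and 501 for null GFP. The p-values measure the spread between these cultures, and array number limits the precision. In bulk RNA, fewer cells of a type and less RNA per cell cannot be told apart.

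Signals of the targeted genes are given first. Olig1 read 11630, 10277 and 5640 in null lines 12, 13 and 14 with Olig2, against 25682 and 24648 in heterozygous lines 11 and 15 with GFP and 21947 and 24595 with Olig2. All 3 null arrays lay below all 4 heterozygous arrays. The difference was -1.46 (SE 0.27, 95% interval -2.05 to -0.87, adjusted p 0.127), beside -1.73 in the null GFP arrays (adjusted p 0.0035) and -1.61 between untransduced null and Olig-expressing cultures. Olig2 read 4450, 5697 and 10011 in the null Olig2 arrays and 10464 to 14757 in the heterozygous arrays, a difference of -0.97 (SE 0.21, adjusted p 0.238). The null GFP arrays read 10275, 8279 and 8950, so the Olig2 signal was not higher with the Olig2 virus than without it (-0.53, adjusted p 0.18). Where these probes lie relative to the deletion and to the viral insert was not stated in the labels or files, so neither probe set checks the labels, and each array is called by its label.

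Few genes were called after add-back. Of 12458 genes tested, 9 were called between null Olig2 and heterozygous cultures (0.0722%), of which 3 were higher (0.0241%) and 6 lower (0.0482%) in the null cultures. Against the same 4 heterozygous arrays the null GFP arrays gave 771 calls (6.19%), 435 higher (3.49%) and 336 lower (2.7%), with the same number of arrays and the same standard error for each gene. Differences of at least 1 in size were found for 264 genes with Olig2 and 740 with GFP. Unadjusted p-values under 0.05 were found for 1058 genes (8.49%) with Olig2 and 2600 (20.9%) with GFP. The median gene had a 95% interval of 0.428 to each side of its difference, before adjustment for the number of genes tested. At that precision a call after adjustment needed a larger difference than this. Id4, for instance, was not called at 1.76 (adjusted p 0.0887 by limma). Few calls thus do not show that the uncalled genes reached the heterozygous level. The 9 calls rest on arrays of 2 heterozygous lines. With each heterozygous line entered as 1 mean, limma called 0 genes (603 at an unadjusted p under 0.05), and 350 genes for null GFP. The split of 3 higher and 6 lower became 1 and 5 with quantile normalization and 0 and 4 with scaling to the 75th percentile.

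**Figure D1:**
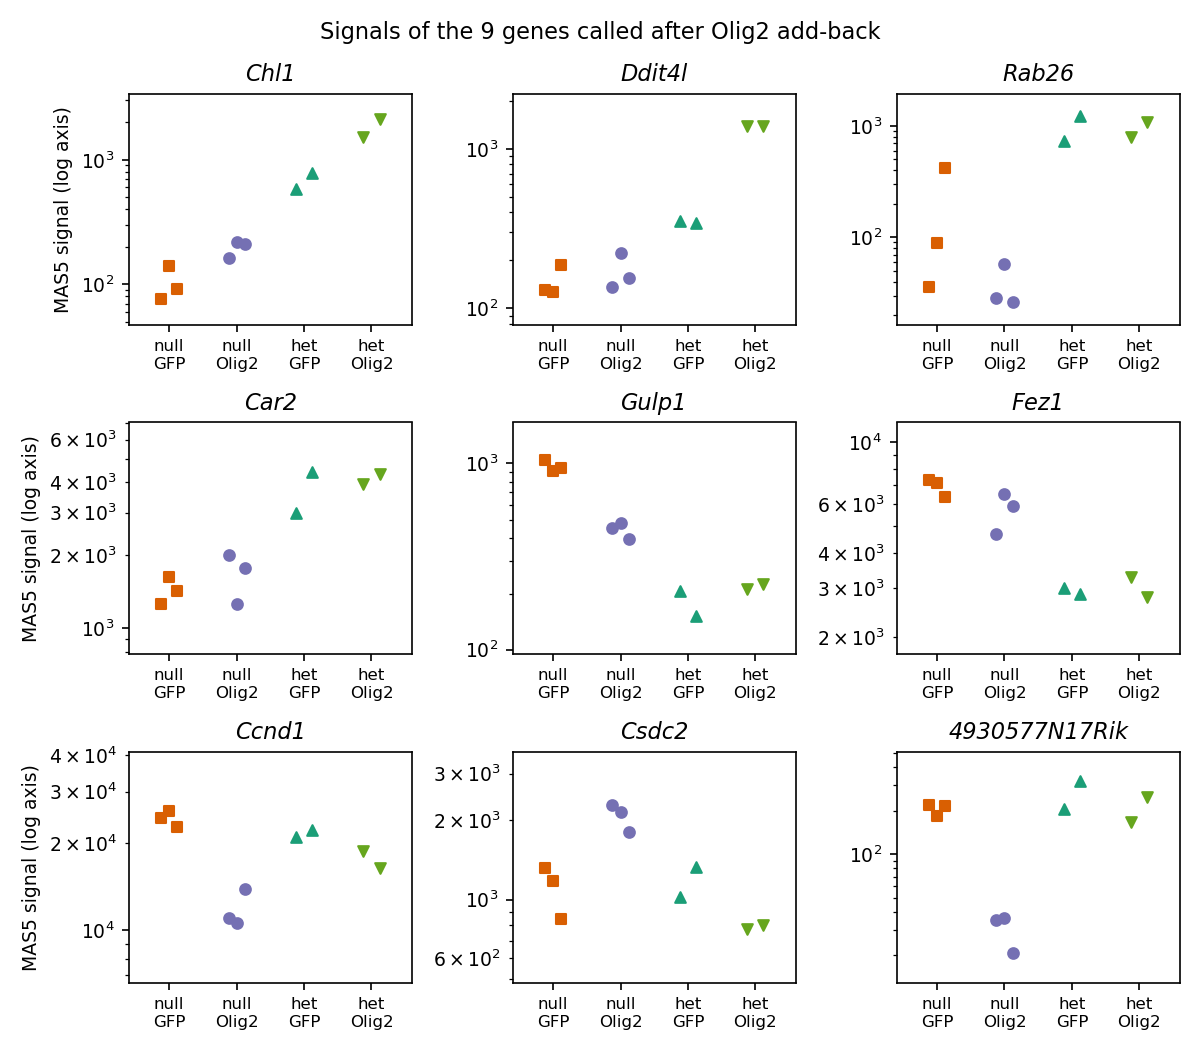
MAS5 signal (log axis) of the 9 genes called between null Olig2 and heterozygous cultures, 1 point per array, for null GFP, null Olig2, heterozygous GFP and heterozygous Olig2 arrays. Null Olig2 and heterozygous points do not overlap in any panel, for genes chosen by their call in that comparison. For Chl1 and Ddit4l the heterozygous Olig2 points lie above the heterozygous GFP points.

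The gene with the smallest p was Chl1, which encodes a neural cell adhesion molecule of the L1 family that acts in neurite growth and migration. The second was Ddit4l, whose product, also called REDD2, is related to REDD1 and restrains mTOR signalling. Both were lower in the null cultures with either virus and, without added virus, in the untransduced null cultures. The stretch from 250 bases before to 50 bases after the start of each gene is shown because these 2 genes had the smallest p and because Olig factors bind E-boxes, the motif CANNTG, which is marked in capitals where it occurs (RefSeq, GRCm38.p6, plus strand for both). The Chl1 stretch is chr6:103510626-103510925 and that of Ddit4l chr3:137623422-137623721.
Chl1: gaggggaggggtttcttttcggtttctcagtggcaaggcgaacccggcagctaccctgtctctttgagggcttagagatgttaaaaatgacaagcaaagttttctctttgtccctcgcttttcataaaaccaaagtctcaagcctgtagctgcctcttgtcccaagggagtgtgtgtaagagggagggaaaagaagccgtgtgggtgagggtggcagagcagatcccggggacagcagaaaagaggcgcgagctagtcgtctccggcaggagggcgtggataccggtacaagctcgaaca
Ddit4l: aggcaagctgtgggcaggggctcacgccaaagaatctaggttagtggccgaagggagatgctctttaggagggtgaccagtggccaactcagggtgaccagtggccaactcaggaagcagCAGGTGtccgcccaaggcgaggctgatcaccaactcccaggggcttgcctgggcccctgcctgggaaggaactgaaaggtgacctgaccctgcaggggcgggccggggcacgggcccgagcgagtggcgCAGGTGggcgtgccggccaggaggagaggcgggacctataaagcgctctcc
The Ddit4l stretch holds 2 CANNTG motifs, both CAGGTG, and the Chl1 stretch holds 0. CANNTG, which reads as CANNTG on both strands, is found in 72.3% of all 32851 such stretches of 300 bases, so its presence or absence describes these letters only.

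Chl1 signals were 163, 217 and 209 in null lines 12, 13 and 14 with Olig2. They were 580 and 783 in heterozygous lines 11 and 15 with GFP, and 1529 and 2127 with Olig2. The null GFP arrays read 76, 141 and 92. With Olig2 the null lines thus lay above the null GFP arrays and below all heterozygous arrays, nearest to those with GFP. Chl1 fell by 2.41 (SE 0.23, 95% interval -2.92 to -1.89, adjusted p 0.00491 by limma), beside -3.27 with GFP, and Olig2 over GFP in the null lines was 0.86 (adjusted p 0.0586). It was called without each of the 10 transduced arrays in turn and in 10 of 13 other settings. Of its 4 probe sets the 2 with the larger heterozygous signals read -2.41 and -1.63, and the other 2 -0.30 and 0.26.

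Ddit4l signals were 137, 224 and 155 in the null Olig2 arrays. They were 354 and 342 in the heterozygous GFP arrays and 1384 and 1393 in the heterozygous Olig2 arrays. The null GFP arrays, at 130, 126 and 187, covered much the same range as the null Olig2 arrays. Ddit4l fell by 1.95 (SE 0.22, adjusted p 0.0107 by limma), and Olig2 over GFP was 0.19 in the null lines (adjusted p 0.648). In the heterozygous lines Olig2 over GFP was 1.95, and 0 of 12458 genes were called in that comparison of 2 arrays against 2 (0%; adjusted p 0.305 for Ddit4l; 484 genes at an unadjusted p under 0.05). The difference between the Olig2 effects in null and heterozygous lines was -1.76 for Ddit4l (adjusted p 0.132) and -0.54 for Chl1 (adjusted p 0.637), where 7 genes were called (0.0562%). The Ddit4l call ended without any one of the 4 heterozygous arrays, with adjusted p up to 0.0957, and held without each of the 6 null arrays.

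Against the heterozygous Olig2 arrays alone, which carried the same virus, 3 genes were called (0.0241%), 1 higher (0.00803%) and 2 lower (0.0161%). Without 1 array at a time this total ran from 2 to 7. The 3 were Chl1 (-3.11), Ddit4l (-2.93) and Rad9a (2.17, SE 0.28, adjusted p 0.0305), a subunit of a DNA damage checkpoint clamp that is named here after its value was seen. Against the heterozygous GFP arrays alone limma called 0 genes (0%; 903 at an unadjusted p under 0.05; up to 5 called without null Olig2 line 14), with Chl1 at -1.71 (adjusted p 0.127) and Ddit4l at -0.98 (adjusted p 0.531).

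Of the 9 called genes, 6 were also called in the same direction in the untransduced cultures, where 1000 of 12022 genes were called (8.32%, of which 4.34% higher and 3.98% lower), and 0 in the opposite direction. These 6 were Chl1, Ddit4l, Rab26 and Car2, lower in null cultures, and Gulp1 and Fez1, higher. All but Rab26 (-2.10, adjusted p 0.179) were also called in the untransduced lines that have no transduced array (null 16, 21 and 24 against wild-type 2, 3 and 20 and heterozygous 26), where 4.36% of genes were called (2.35% higher and 2.01% lower; 286 and 261 calls in place of 524 without null line 21 or 24).

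Rab26 encodes a small GTPase of secretory and synaptic vesicles. Its signals were 29, 58 and 26 in the null Olig2 arrays, 735 to 1217 in the heterozygous arrays and 36, 89 and 417 in the null GFP arrays. All null arrays of both viruses lay below the heterozygous arrays, with null GFP line 14 the nearest to them. Rab26 fell by 4.20 (SE 0.57, adjusted p 0.0375), beside -2.84 with GFP.

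Car2 encodes a carbonic anhydrase that is abundant in oligodendrocytes. Its signals were 2006, 1257 and 1774 in the null Olig2 arrays, 1259, 1628 and 1432 in the null GFP arrays, and 2994, 3952, 4414 and 4324 in the heterozygous arrays. The null arrays of both viruses shared 1 range below the heterozygous arrays. Car2 fell by 1.23 (SE 0.18, adjusted p 0.0491), beside -1.43 with GFP, and Olig2 over GFP was 0.20 in the null lines.

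Gulp1 encodes an adaptor for the engulfment of dying cells. It read 452, 477 and 393 in the null Olig2 arrays, between 152 to 224 in the heterozygous and 910 to 1037 in the null GFP arrays. The 3 groups did not overlap, with the Olig2 arrays in the middle. Gulp1 rose by 1.10 (SE 0.17, adjusted p 0.0491) against the heterozygous arrays, where null GFP gave 2.20, so 49.8% of the log2 difference remained. It fell with Olig2 in the null lines by 1.10 (adjusted p 0.00532), in a comparison where 982 genes were called (7.88%), 404 higher (3.24%) and 578 lower (4.64%). That total was 298 and 355 without null Olig2 line 12 or 13, and 527 and 553 without null GFP line 13 or 14.

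Fez1 encodes an adaptor for kinesin transport in axons. Signals were 4695, 6530 and 5878 in the null Olig2 arrays, 2799 to 3291 in the heterozygous and 6350 to 7333 in the null GFP arrays. Line 13 with Olig2 lay within the null GFP range and lines 12 and 14 below it. Fez1 rose by 0.92 (SE 0.13, adjusted p 0.0375), beside 1.21 with GFP.

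The other 3 called genes were not called in the untransduced cultures or between null GFP and heterozygous arrays, and each was called when the null lines with Olig2 were set against those with GFP. Ccnd1, which encodes cyclin D1 and drives entry into S phase, read 10991, 10568 and 13901 in the null Olig2 arrays, 16419 to 22192 in the heterozygous and 22601 to 25775 in the null GFP arrays. No other array of the 10 was as low. Ccnd1 fell by 0.73 (SE 0.11, adjusted p 0.0491) against heterozygous and by 1.04 against null GFP arrays (adjusted p 0.0011), and its 3 probe sets ran from -0.80 to -0.70.

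Csdc2, a gene on chromosome 15 for an RNA-binding protein with a cold-shock domain, read 2276, 2142 and 1809 in the null Olig2 arrays and 775 to 1328 in the heterozygous and 844 to 1319 in the null GFP arrays. No other array of the 10 was as high. Csdc2 rose by 1.10 (SE 0.17, adjusted p 0.0491), with 1.10 to 3.08 over 3 probe sets, of which the one used is marked by the manufacturer as open to cross-hybridisation. The third gene has a Riken name only.

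Most of these calls were near the threshold. Without 1 of the 10 arrays at a time the total ran from 1 to 7. It was 1 without heterozygous line 11 with either virus, 2 without heterozygous line 15 with either virus or null GFP line 13, 4 without null GFP line 12 or 14, 5 without null Olig2 line 13, 6 without null Olig2 line 12 and 7 without null Olig2 line 14. Rab26 kept its call without null GFP line 12 or 14, Fez1 without null Olig2 line 12, Ccnd1 without null Olig2 line 14 and Csdc2 without null GFP line 14, and each lost it without any other array. Car2, Gulp1 and the Riken gene lost theirs without any one of the 10. Without both arrays of heterozygous line 11 there were 4 calls, and without both of line 15 there was 1.

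Id4, the gene that the study's title sets against Olig1 and Olig2, read 491, 429 and 1170 in null lines 12, 13 and 14 with Olig2. It read 195, 149, 208 and 151 in the heterozygous arrays and 2672, 4345 and 4283 in the null GFP arrays. All 3 null Olig2 arrays lay above the heterozygous and below the null GFP arrays, and line 14 was the highest of the 3. Id4 fell with Olig2 in the null lines by 2.52 (SE 0.32, adjusted p 0.00196). The difference that remained from the heterozygous arrays was 1.76 (SE 0.30, 95% interval 1.10 to 2.42), beside 4.28 with GFP, and was not called (adjusted p 0.0887, and 0.055 at the lowest over 23 other settings). Its 3 probe sets read 1.56 to 2.01.

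Hmga2, a chromatin gene of fetal stem cells, gave the opposite picture. Its signals were 2532, 3744 and 3044 in the null Olig2 arrays and 2450 to 3474 in the heterozygous arrays. The null GFP arrays read 261, 132 and 195, far below both. The difference that remained was 0.19 (95% interval -0.28 to 0.65), where null GFP gave -3.72. Cdkn1a, which encodes the cell-cycle inhibitor p21, read 2894, 3325 and 3409 against 3547 to 4156 in heterozygous and 4121 to 6972 in null GFP arrays. All 3 lay below both ranges, with a difference from heterozygous of -0.25 (95% interval -0.60 to 0.11, adjusted p 0.701).

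**Figure D2:**
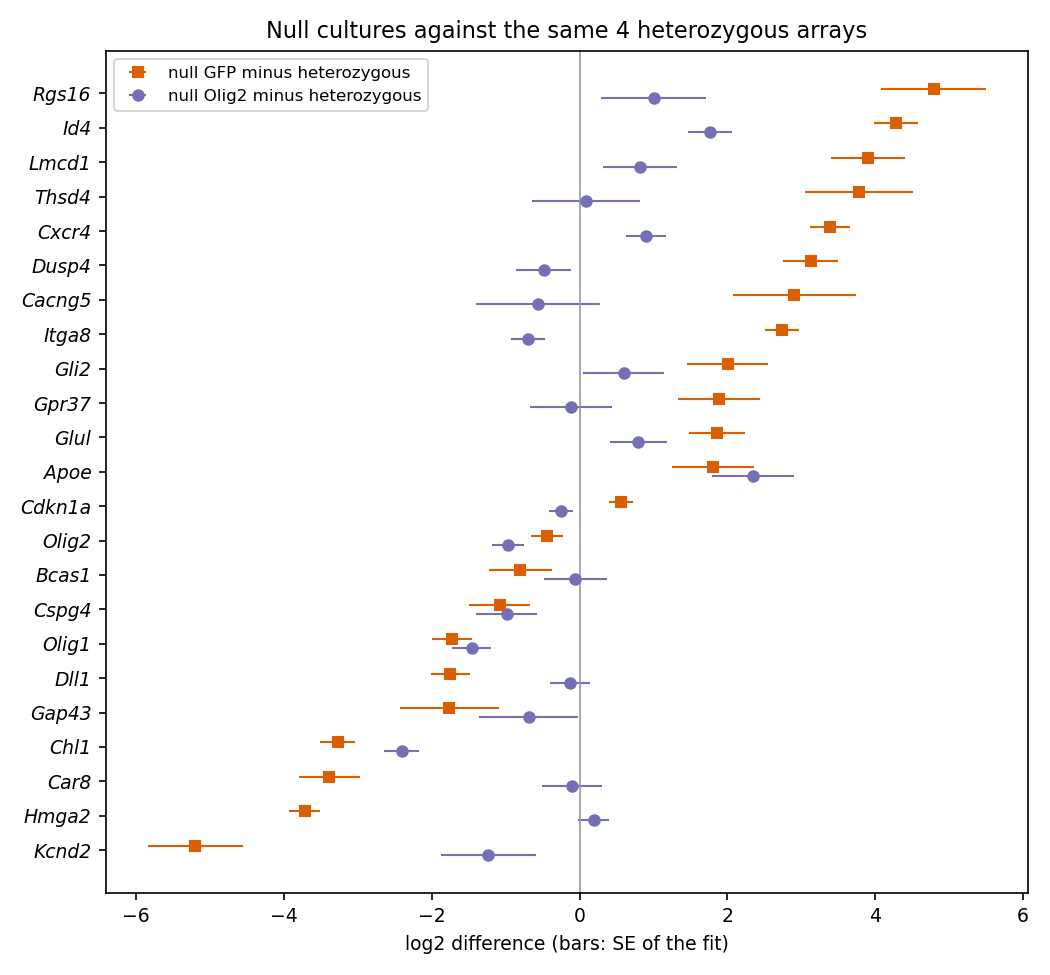
Log2 difference, with SE of the fit, of null GFP (squares) and null Olig2 (circles) from the same 4 heterozygous arrays, for genes named by the study or known from earlier results of these data. Circles of Hmga2, Car8, Thsd4, Dll1, Gpr37 and Bcas1 lie near 0, while those of Chl1, Apoe, Id4, Olig1 and Kcnd2 lie more than 1 from it, and both values of a gene share their heterozygous arrays. Thsd4 and Gpr37 read below the array median in every null Olig2 and heterozygous array.

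Other genes of the null state ranged widely in what was left. Car8, a carbonic anhydrase-related gene, read 1361, 900 and 508 in the null Olig2 arrays against 683 to 1560 in the heterozygous and 28 to 122 in the null GFP arrays. Lines 12 and 13 lay within the heterozygous range and line 14 below it. Its difference was -0.11 with Olig2 and -3.39 with GFP. Thsd4, a gene of the extracellular matrix, read 8 to 18 against 7 to 14 in heterozygous and 285 to 408 in null GFP arrays, with 0.09 and 3.78. Thsd4 passed the filter through the null GFP arrays alone. Its other signals lay far below the array medians, so its 0.09 compares values near the floor. The Notch ligand gene Dll1 gave -0.13 with Olig2 (95% interval -0.71 to 0.45) and -1.75 with GFP. Dusp4, a MAP kinase phosphatase gene, gave -0.49 and 3.13, and the integrin gene Itga8 gave -0.70 and 2.74, so the null Olig2 values of both lay below the heterozygous mean.

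A second group kept larger differences, none of them called by limma (adjusted p 0.444 to 0.72). The chemokine receptor gene Cxcr4 read 205, 386 and 305 with Olig2 against 111 to 194 in heterozygous arrays, without overlap, and 1459 to 2121 with GFP. Its difference was 0.90 (SE 0.27, adjusted p 0.444), beside 3.39 with GFP. The potassium channel gene Kcnd2 read 761, 1258 and 121 against 550 to 2038 and 4 to 49, so lines 12 and 13 lay within the heterozygous range and line 14 below it. Lmcd1, a LIM-domain cofactor gene, read 675, 283 and 2026 against 197 to 685, and Rgs16, which limits G-protein signalling, read 430, 96 and 1264 against 40 to 567. In both genes line 14 with Olig2 lay above the heterozygous range and lines 12 and 13 within it. Glul, the glutamine synthetase gene of astrocytes, likewise read 3114, 2405 and 10818 against 1865 to 3458, and the null GFP range was 8227 to 10390.

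The larger set of genes that distinguishes untransduced null cultures showed the same partial shift. Of 990 such genes tested in both sets, 519 were higher and 471 lower in untransduced null cultures. The 519 raised genes had a median difference of 0.79 untransduced, 0.74 between null GFP and heterozygous arrays and 0.18 between null Olig2 and heterozygous arrays. The last is 24.9% of the value with GFP, and the genes between the lower and upper quartile ran from 0.0043 to 0.46. The 471 lowered genes had medians of -0.62, -0.53 and -0.15, with 28.8% remaining. Over all 11789 genes tested in both sets the median was -0.0085 with Olig2. The same direction as untransduced was kept with Olig2 by 75.9% of raised genes, where 48.5% of all genes were higher, and by 73.5% of lowered genes, where 51.5% of all genes were lower. The untransduced and transduced arrays are different arrays, but lines 11 to 15 occur in both.

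By array, the median over the 519 raised genes was 0.22, 0.083 and 0.32 in null lines 12, 13 and 14 with Olig2, measured from the heterozygous mean (mean 0.21 ± 0.12, SD, n = 3). It was 0.69 to 0.83 in the null GFP arrays and -0.090 to 0.080 in the heterozygous arrays. All 3 null Olig2 arrays thus lay above the heterozygous arrays, line 13 only just, and far below the null GFP arrays. Over the 471 lowered genes the medians were -0.14, -0.081 and -0.25 with Olig2, -0.53 to -0.44 with GFP and -0.062 to 0.094 in the heterozygous arrays. Line 14 was again the farthest from the heterozygous arrays and line 13 the nearest, and without line 14 with Olig2 the medians over genes were 0.12 for raised and -0.11 for lowered genes. The heterozygous arrays with Olig2 lay on the far side of those with GFP, so the raised genes' median was 0.25 against heterozygous Olig2 and 0.11 against heterozygous GFP arrays.

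**Figure D3:**
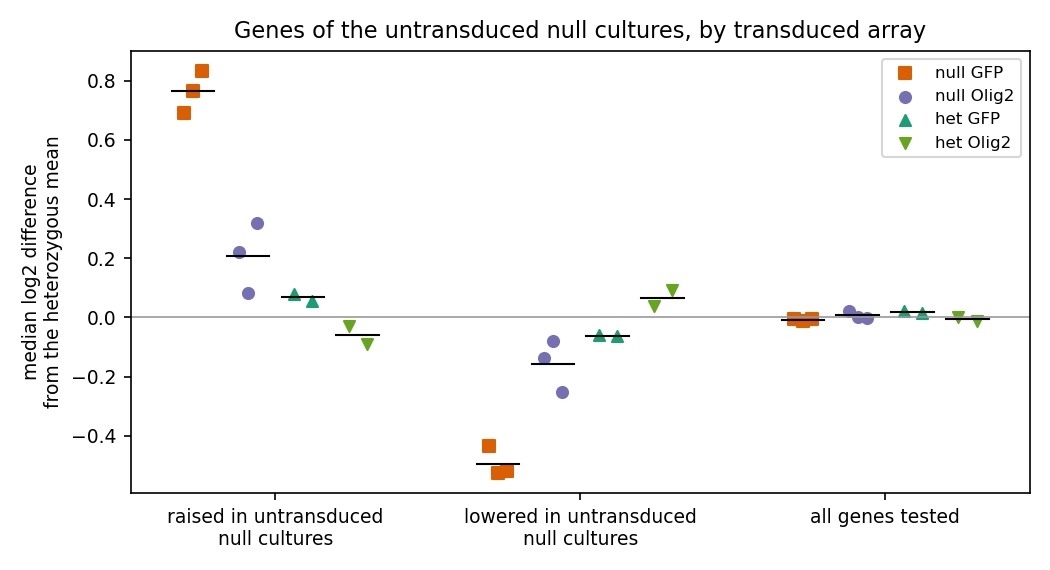
Median log2 difference from the heterozygous mean in each transduced array (points; bars are group means) over 519 genes raised and 471 lowered in untransduced null cultures and over all genes tested. The 3 null Olig2 arrays lie between the null GFP and the heterozygous arrays for raised genes (0.083 to 0.32) and for lowered genes (-0.25 to -0.081), and near 0 over all genes.

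Genes chosen from untransduced lines that have no transduced array gave like values. Their 280 raised genes had medians of 1.003 untransduced, 1.01 with GFP and 0.25 with Olig2, and 240 lowered genes had -0.60, -0.53 and -0.20. Among genes with an untransduced difference of at least 2, the 39 raised had 2.66 with GFP and 0.57 with Olig2, while the 19 lowered had -2.17 and -1.03. So 21.4% of the median remained for the strongly raised and 47.3% for the strongly lowered genes, a difference that was not tested. An unadjusted p under 0.05 in the untransduced direction was found with Olig2 in 103 of the 519 raised genes (19.8%), against 4.18% of all genes that were higher at such a p, and in 84 of the 471 lowered (17.8%), against 4.56% lower. The opposite direction had 4 and 7. Differences of at least 1 in the untransduced direction were found with Olig2 in 22 raised and 20 lowered genes and with GFP in 195 and 120, counts that need not be of the same genes. After adjustment 2 raised genes were called (0.385% of the set and 22.2% of the 9) and 4 lowered (0.849% and 44.4%).

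The 24 genes with the largest differences after add-back in the untransduced direction, 12 each way, were chosen for their size and are described without a test. The choice did not use the null GFP arrays, and for some of them, such as Itga7, Lmo2, Cavin2 and Pf4, the difference with GFP was smaller or of the opposite sign. The 3 null Olig2 arrays lay above all 4 heterozygous arrays for 9 of the 12 raised, against 4.29% of all genes, and below them for 8 of the 12 lowered, against 5.02%. None of the raised 12 was called by limma, and Chl1, Ddit4l and Rab26 were called among the lowered, against 0.0241% of all genes called higher and 0.0482% called lower. Emilin1, an elastic fibre glycoprotein gene, read 187, 801 and 283 against 15 to 168 in the heterozygous arrays, a difference of 2.73 (SE 0.58, adjusted p 0.225). S100a4, a calcium-binding protein gene linked to motility, read 602, 374 and 1494 against 122 to 243, a difference of 1.86. Neither heterozygous range reached the null Olig2 range, and null GFP arrays lay at 404 to 861 and 506 to 918.

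Apoe, the lipid carrier gene of astrocytes, read 3488, 5627 and 2023 against 397 to 1373, and 827 to 6502 with GFP. All 3 were above the heterozygous arrays, with a difference of 2.34 (SE 0.56, adjusted p 0.298) beside 1.80 with GFP. The kinase gene Pak3, which acts in dendritic spines, read 234, 224 and 224 against 38 to 75, and the vesicle GTPase gene Rab3c read 106, 74 and 62 against 5 to 17. Both were also above the heterozygous range with GFP, at 209 to 865 and 240 to 355. Ptprn, a gene for a protein of dense-core secretory vesicles, read 266, 336 and 211 against 62 to 132, with 147 to 209 in the null GFP arrays. The integrin gene Itga7 read 724, 475 and 575 against 57 to 313, and 113, 233 and 746 with GFP. Lines 12 and 13 with GFP lay within the heterozygous range, and the difference was 1.604 with Olig2 and 0.56 with GFP (adjusted p 0.472 and 0.613). E2f5, an E2F family gene that acts in repression, read 1780, 500 and 2467 against 266 to 404, while its null GFP arrays read 2728, 1445 and 212, on both sides of that range.

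Among the lowered genes line differences were wide. Ramp1, which encodes a partner of the calcitonin-like receptor, read 3248, 60 and 157 against 1699 to 6578, so line 12 lay within the heterozygous range and lines 13 and 14 far below it. Tagln2, an actin-binding protein gene, read 425, 2590 and 347 against 1801 to 2687, with line 13 within the range and the other lines below. The fits gave -3.55 (SE 1.01, adjusted p 0.433) and -1.45 (SE 0.52, adjusted p 0.504). Ctsh, a lysosomal protease gene, read 305, 98 and 74 against 205 to 660. Lmo2, a LIM-only gene of blood and vessel formation, read 32, 190 and 36 against 228 to 468, without overlap, and 262, 227 and 162 with GFP. Its difference was -2.12 with Olig2 and -0.61 with GFP (adjusted p 0.225 and 0.496), so it was larger with Olig2 than with GFP. Pf4, a chemokine gene of platelets, read 770, 462 and 1601 against 2234 to 3446, but 3056 to 9177 with GFP, so in the transduced null lines it was lower with Olig2 than with GFP (-2.76, adjusted p 0.00497). The other members were Igdcc4, Ahnak and Eif2s3y, raised at 1.27 to 1.76 with overlap, and Mamdc2, Cavin2 and Pygm, lowered at -3.11 to -1.65. Eif2s3y is Y-linked, was near 0 in heterozygous line 15 (2 in both arrays) and read 16.5 in null line 13 with Olig2, against 627 and 826 in lines 12 and 14. Kdm5d, also Y-linked, read 540.5 in that line 13 array. In untransduced cultures Xist was high in wild-type 3 and 20 and heterozygous 15 and 26 (27859 to 36751). Among null lines it was high in 21 and 24 only (25794 and 21551). The part of this in the genes raised in untransduced null cultures was not tested.

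Gene lists were described by their counts and medians. Of 1093 memberships in 37 lists, 1029 had a probe set, and 3 list genes were called, Chl1 among cell adhesion genes, Ddit4l among p53 targets and Ccnd1 among G1 cyclins, against 0.0722% of all genes. The median over all genes was -0.0053. Astrocyte genes had the largest list median, 0.35 over 25 genes tested with 0 called. Null GFP gave -0.30 with 1 higher and 4 lower, against 3.49% and 2.7% of all genes. The array medians were 0.55, 0.39 and -0.05 in null lines 12, 13 and 14 with Olig2 and -0.15 to 0.09 in the heterozygous arrays, so lines 12 and 13 were above and line 14 within the range. Summed over 26 genes the signal was 106922 to 121462 with Olig2, 82988 to 92756 in heterozygous and 89521 to 103937 in null GFP arrays. The 3 Olig2 arrays were the highest. Besides Apoe the smallest p was that of Gfap, the astrocyte filament gene, at 1.19 (adjusted p 0.437). With GFP, Apoe was at 1.80 and Gfap at 0.83, neither called, so these 2 genes did not follow the list median. Other members were lower with Olig2, such as Gja1 (-1.10) and Acsbg1 (-0.38).

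p53 targets had the lowest median, -0.25 over 21 genes, with array medians of -0.40, -0.23 and -0.21 in the null Olig2 arrays, -0.03 to 0.12 in the heterozygous and 0.22 to 0.55 in the null GFP arrays. The 3 groups did not overlap, and the null Olig2 arrays were on the other side of the heterozygous arrays from null GFP. Of the 21 genes, 1 was lower than in heterozygous arrays (Ddit4l, against 0.0482% of all genes). With GFP 4 were higher and 1 lower, against 3.49% and 2.7% of all genes. The lower gene was again Ddit4l (-2.14), so the called gene did not follow the list's opposite signs with the 2 viruses. In the null lines 11 were lower with Olig2 than with GFP, against 4.64% of all genes. Hypoxia and glycolysis genes had a median of 0.23 over 25 genes with 0 called. For them null GFP gave -0.48 with 1 higher and 10 lower, against the same 3.49% and 2.7% of all genes. The hypoxia array medians of 0.36, 0.08 and 0.32 fell within the heterozygous range of -0.19 to 0.39, above the null GFP range of -0.58 to -0.38. That heterozygous range split by virus, at -0.19 and -0.11 with GFP and 0.10 and 0.39 with Olig2. Null Olig2 lines 12 and 14 lay between the heterozygous Olig2 arrays and line 13 just below them. The list median of 0.23 is thus a difference from the mean of both viruses. Vegfa, the vessel growth factor gene, was at 0.60 (adjusted p 0.369), beside -0.79 with GFP. Over 9 settings the medians ran from 0.28 to 0.37 for astrocyte genes, -0.31 to -0.21 for p53 targets and 0.20 to 0.28 for hypoxia genes, so none changed sign.

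Proliferation genes had a median of -0.23 over 29 genes with 0 called, with array medians of -0.41, -0.13 and -0.08 against -0.06 to 0.07. All 3 null Olig2 arrays lay below the heterozygous arrays, line 14 only just. Null GFP gave a list median of -0.15, with array medians of 0.02, -0.03 and -0.33 in lines 12, 13 and 14. Line 14 was thus lower with GFP than with Olig2, and line 12 lower with Olig2. The proliferation marker Mki67 was at -0.45 (adjusted p 0.369) and the replication licensing gene Mcm2 at -0.89 (adjusted p 0.472). Oligodendrocyte precursor genes had a median of -0.12 over 15 genes, and their summed signal over 18 genes was 64838 to 76451 with Olig2, 88140 to 97870 in heterozygous and 61739 to 71646 in null GFP arrays. The null arrays of both viruses lay below the heterozygous arrays, and Olig1 and Olig2 themselves are members. Their mean signals were 9182 and 6720 in null Olig2 against 24220 and 12540 in heterozygous arrays, a large part of the gap between the sums. Sums without them were not computed, so the gap does not describe the other members. The precursor proteoglycan gene Cspg4 read 294, 828 and 464 against 565 to 1477, a difference of -0.99 (adjusted p 0.563). Of the 40 tested genes near Olig1 and Olig2, 0 were called by limma (adjusted p 0.127 at the lowest, that of Olig1). An unadjusted p under 0.05 was found for 8, Olig1 and Olig2 included, against 8.49% of all genes.

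In the Wnt, receptor kinase, integrin, ion channel, Notch and collagen lists limma called 0 genes in each, with 3 of 31, 4 of 39, 3 of 14, 3 of 42, 5 of 26 and 4 of 50 at an unadjusted p under 0.05. Over all genes 8.49% had such a p. The Wnt, receptor kinase, ion channel and collagen counts are near that share, and the integrin and Notch counts are above it in short lists. Genes with the lowest p in each list are named. Apcdd1, a Wnt inhibitor gene, was at 1.25 (adjusted p 0.0767), the receptor kinase gene Tyro3 at 0.70 (adjusted p 0.238) and the laminin receptor gene Itga6 at 0.93 (adjusted p 0.127). With GFP Apcdd1 was at -0.25, and Olig2 over GFP was 1.51 in the null lines (adjusted p 0.00382 by limma). Its rise was thus found with the Olig2 virus and not with GFP. Gabra2, a GABA receptor subunit gene, was at -1.21 (adjusted p 0.0624) and the potassium channel gene Kcna1 at -1.89 (adjusted p 0.238). Hey1, a Notch target gene, was at 0.79 and Notch2 at 0.54, and both were called higher in untransduced null cultures (1.61 and 0.85). In the null GFP arrays, however, Hey1 was at 0.06, near the heterozygous level. Tnc, the matrix gene for tenascin C, was at 0.59 (adjusted p 0.348), beside 1.32 with GFP. Markers of other cell types overlapped in summed signal between null Olig2 and heterozygous arrays, at 1892 to 2386 and 1617 to 2440 for microglia genes, 2114 to 2777 and 2173 to 3825 for vascular genes and 3189 to 4133 and 2986 to 3660 for meningeal genes.

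Several such genes were called between null GFP and heterozygous arrays and lay nearer to the heterozygous level with Olig2. Axl, a receptor kinase gene of the same family as Tyro3, read 650, 602 and 529 against 287 to 527 in heterozygous and 147 to 221 in null GFP arrays, so it was on the high side with Olig2 (0.65, adjusted p 0.444) and on the low side with GFP (-1.03, adjusted p 0.00991). The endothelin receptor gene Ednrb read 1976, 4489 and 1494 against 2905 to 5331, with line 13 within the range, and 1080 to 1373 with GFP. The imprinted gene Mest read 16118, 10724 and 19798 against 16112 to 21734, with line 13 below the range. Hspa5, the chaperone gene of the endoplasmic reticulum, read 4410, 5953 and 6429 against 8203 to 8486 and 10572 to 16602 with GFP. Its 3 groups did not overlap, and it fell with Olig2 in the null lines by 1.27 (adjusted p 0.0025). P2ry12, a purinergic receptor gene of microglia, read 172, 138 and 228 against 95 to 179 and 493 to 884 with GFP.

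Another set was separated from the heterozygous arrays after add-back without a call in either null group. Etv4, a transcription factor gene induced by MAP kinase signalling, read 867, 1007 and 966 against 1208 to 1655 (-0.54, adjusted p 0.369), and the null GFP arrays read 856 to 1193. Stat3, a transcription factor gene of cytokine signalling, read 6081, 5721 and 6575 against 4288 to 5129 (0.37, adjusted p 0.447). Nnat, an imprinted gene of fetal brain, read 2332, 2037 and 1130 against 56 to 602 (2.65, SE 0.78, adjusted p 0.441). None of the 3 overlapped its heterozygous range. The class I histocompatibility gene H2-K1 read 640, 747 and 707 against 661 to 1841, overlapping in heterozygous line 15 with GFP (-0.80, adjusted p 0.417), and was called lower in untransduced null cultures (-0.96).

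**Figure D4:**
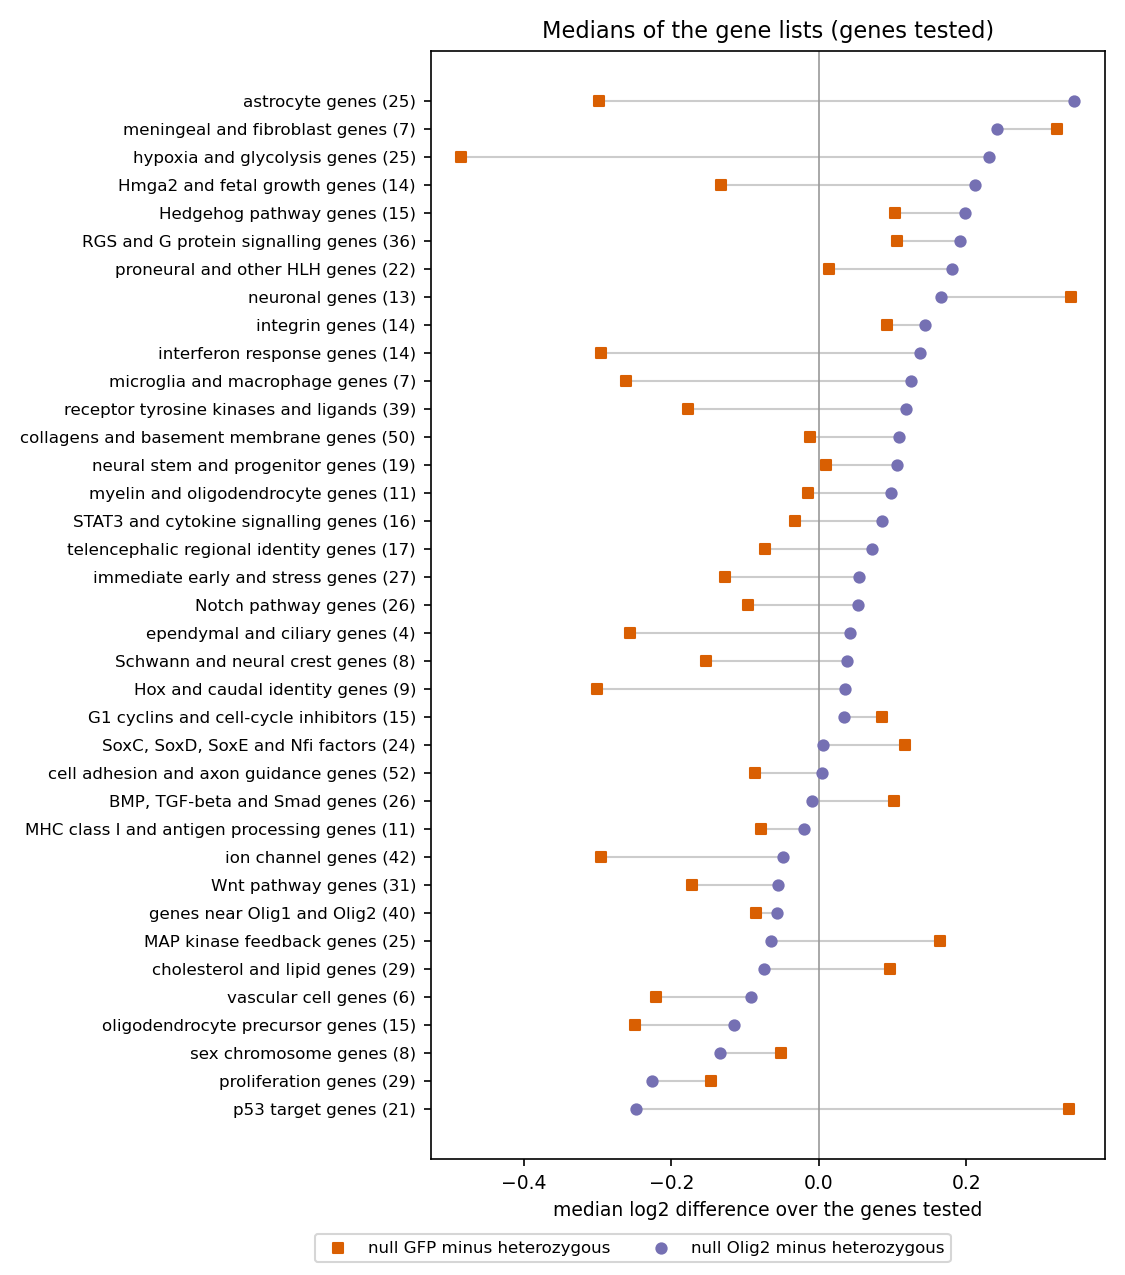
Median log2 difference from the same 4 heterozygous arrays over the tested genes of each list (number in brackets), for null GFP (squares) and null Olig2 (circles). The astrocyte (-0.30 and 0.35), hypoxia (-0.48 and 0.23) and p53 (0.34 and -0.25) lists lie on opposite sides of 0, and no set test was made.

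The difference between null Olig2 and heterozygous arrays was not even along the genome. It stood out on chromosome 15, where the null GFP median was -0.045 over 3 arrays that differed among themselves. The 498 tested genes of chromosome 15 had a median of 0.17, where the other autosomes and X ran from -0.045 to 0.031, and 50 of them were higher and 5 lower at an unadjusted p under 0.05, with 1 called (Csdc2). By array the chromosome 15 median deviated by 0.20, 0.17 and 0.079 in null lines 12, 13 and 14 with Olig2, by -0.14 and 0.011 in heterozygous lines 11 and 15 with GFP, and by -0.061 and 0.13 with Olig2. Null GFP gave 0.13, -0.19 and -0.15. Lines 12 and 13 with Olig2 were the highest of the 10 arrays, heterozygous line 15 with Olig2 lay above null line 14 with Olig2, and line 12 was high with both viruses. Without chromosome 15 the total was 8 calls. On the X chromosome 12.9% of 404 genes had an unadjusted p under 0.05, against 8.49% of all genes, with 0 called by limma, and the heterozygous lines differed in Xist signal.

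**Figure D5:**
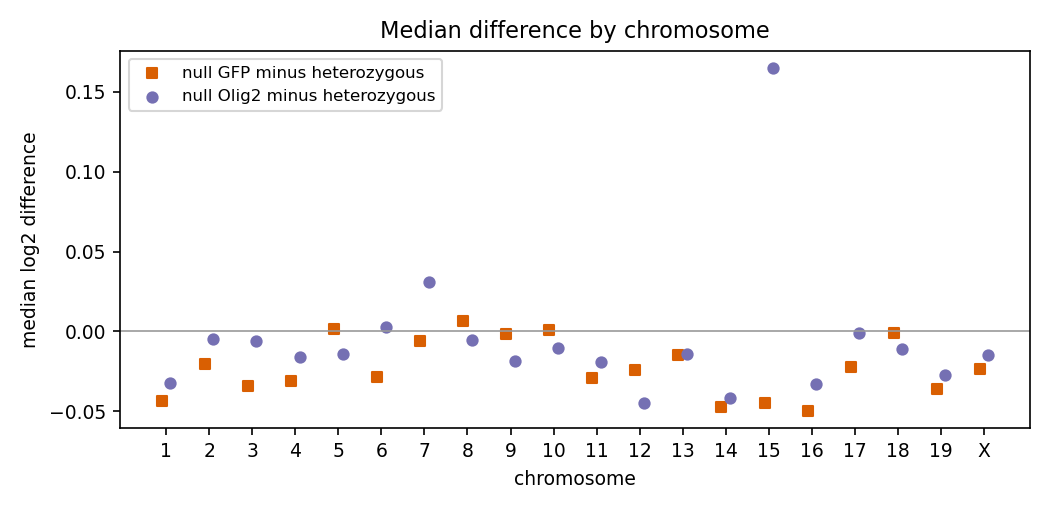
Median log2 difference from the 4 heterozygous arrays over the tested genes of each chromosome, for null GFP (squares) and null Olig2 (circles), without the Y chromosome. Chromosome 15 stands at 0.17 for null Olig2 and -0.045 for null GFP, and the other null Olig2 medians lie between -0.045 and 0.031.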

How the data were processed

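RNA was measured on Affymetrix Mouse Genome 430 2.0 arrays. Per the submitters' processing notes the authors made the deposited values with MAS5, with no version named there. The deposited intensity values were scaled by the authors to a trimmed mean (2% off each end) of 500 per array, as read from the values, on a linear scale. Of 45101 probe sets, 34958 had 1 gene symbol in the platform annotation, for 18193 genes, and 34754 matched RefSeq (GRCm38.p6), from which the chromosomes and promoter sequences come. Of several probe sets for a gene, the one with the highest log2 mean across the 30 arrays stood for it. Tests took genes at or above the array median in at least 2 of the 10 transduced or 3 of the 12 untransduced arrays.

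Differences of log2(signal + 16), which understate changes of dim genes, were fitted in R 4.3.3 with limma 3.58.1 (linear model, moderated with a trend, two-sided, Benjamini-Hochberg over all genes tested). Files were read with the data.table package (1.17.8) and plotted with python 3.11.15 and matplotlib 3.10.9. The 4 transduced groups shared 1 estimate of spread. The main contrast set null Olig2 against the mean of both heterozygous groups, and the scripts were tested on simulated data. Line numbers link arrays, but deviations from the group means of same-line null arrays correlated at 0.0068 to 0.063 and those of the heterozygous lines at 0.13 (1 value for both lines, whose deviations mirror each other). Not every line passed 0.1, so arrays were not paired. Alternatives changed the pseudocount (1 or 64), the filter, the scaling, the probe sets, the trend, the arrays compared and the line block, and left out single arrays; leaving out both arrays of a heterozygous line, and the contrast of Olig2 effects between null and heterozygous lines, were added later.

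Named genes were Olig1, Olig2, Id4, Hmga2 and Cdkn1a, all called genes, the 12 largest differences after add-back each way among genes called the same way in untransduced cultures, the genes of smallest p in each list, and 18 genes known from the study. Genes with a Riken name only were counted. The members and lists were chosen with earlier results of these data known.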

Additional observations from a re-analysis of the deposited data

Results flagged for a closer look

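Among the 4 heterozygous arrays, line 11 with GFP stood apart for 2 of 33 genes examined, where chance alone marks about 1 in 20 groups. Its Hmga2 signal was 3474 against 2449.6 to 2503.2 in the other 3 arrays, a gap of 0.938 of the whole range on the log2 scale. Its Tagln2 signal was 2687.1 against 1800.9 to 1882.7, a gap of 0.889. A count of 2 in 33 is near the share that chance alone marks, and the 4 arrays hold 2 lines and 2 viruses.

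The effect of the Olig2 virus differed between null and heterozygous lines for 2 of the genes named, in a contrast where 7 of 12458 genes were called (0.0562%). Both genes had been chosen with earlier results of these data known. For Hmga2 the effect was 4.17 larger in the null lines (adjusted p 0.00133 by limma), where Olig2 over GFP was 3.91 in null and -0.26 in heterozygous lines. For the integrin gene Itga8 the difference was -3.36 (adjusted p 0.0115), with -3.44 in null and -0.08 in heterozygous lines. In both genes all 3 null Olig2 arrays lay on the heterozygous side of all 3 null GFP arrays.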

How the results depend on the processing

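The 9 calls between null Olig2 and heterozygous cultures became 5 with a pseudocount of 1, 2 without the filter on low signals, 5 with the filter in all arrays of a group, 4 with scaling to the 75th percentile, 3 without the trend, 3 with only the 7 arrays as 2 groups, 3 and 0 against heterozygous Olig2 or GFP arrays alone, and 0 with heterozygous lines as means. Without both arrays of heterozygous line 11 there were 4, and of line 15 there was 1. With the culture line as a replicate block (correlation 0.0892) there were 5, and the line is not taken to pair the arrays, since the correlation was under 0.1 in each null line (0.13 in the heterozygous lines). The causes were not tested, apart from the fewer arrays or groups that some settings hold. The 6 calls shared with untransduced cultures became 2 without the filter, 3 with 75th percentile scaling and 2 without the trend.

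Leaving out 1 array at a time gave 1 to 7 calls for the main comparison, 2 to 7 against heterozygous Olig2, 0 to 5 against heterozygous GFP, 436 to 845 for null GFP, 298 to 1171 for Olig2 over GFP in null lines, 764 to 954 untransduced, 261 to 614 in the lines without a transduced array and 1 to 5 for the shared calls. The median of raised genes ran from 0.12 to 0.25 and that of lowered genes from -0.19 to -0.11. No called gene among those named changed direction in a setting run here. Scaling moved the median of all genes to -0.038 at most. The medians of the ependymal (-0.053 to 0.30, 4 genes), cell adhesion, Hox, Sox and Nfi, and histocompatibility lists changed sign among the settings.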
